A study of Penicillium oxalicum with 9 samples.

Results

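The genes described here are flbD (POX_e07032), brlA (POX_c03558) and abaA (POX_e06958), 3 regulator genes of conidiation in the filamentous fungus Penicillium oxalicum. They were picked by identifier, and are 3 of the 11082 features listed for each library. P. oxalicum gene identifiers are given for 9822 of the features, and the other 1260 are loci without one. RNA was sequenced from 3 strains with 3 biological replicates each, and the labels do not say what was kept separate between replicates, so the p-values measure the spread between these samples, which may be technical. The background strain was Δku70, derived from strain HP7-1, in which the gene ku70 was replaced by the hygromycin resistance marker hphR+. The mutants Δprmt3 and ΔcxrA were made in that background, so all 9 libraries share the loss of ku70 and the hphR+ marker. In each mutant the named gene was replaced by a second marker, G418R+, which Δku70 lacks, so in a comparison with Δku70 the marker and the deletion cannot be told apart. Whether the libraries of a mutant come from 1 transformant is not given in the sources used here. Conidia grown on agar plates were used to start all cultures, mycelium was grown for 24 h with 1% glucose, and it was then moved for 24 h to 2% Avicel, a microcrystalline cellulose, at 28°C.

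Conidiation is the formation of asexual spores on upright stalks called conidiophores. The roles of these genes are known from Aspergillus nidulans. There, FlbD is a Myb-type transcription factor that acts upstream in the switch from hyphal growth to development, BrlA is a C2H2 zinc finger factor that starts conidiophore formation, and AbaA is a TEA/ATTS factor that acts after BrlA in the cells that bud off the spores. In P. oxalicum, POX_e07032 is annotated as a Myb, POX_c03558 as a C2H2 zinc finger and POX_e06958 as a TEA/ATTS transcription factor. The gene names were paired with the identifiers by family. The annotation, which covers only genes the study called, names 25 C2H2, 4 Myb and 1 TEA/ATTS genes. Family alone thus does not single out brlA or flbD.

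Values are FPKM as the authors deposited them, the number of sequenced fragments of a gene set against its length and the size of the library, so that levels of different genes can be compared per length. Library totals lay between 1036054 and 1096738 FPKM. Of the total, the 20 highest features took 14.6% to 17.0% in Δku70, 24.9% to 25.5% in Δprmt3 and 11.4% to 13.2% in ΔcxrA. Because of this unequal composition the libraries were also scaled, by median of ratios, with factors between 0.822 and 1.28. Tests were made with limma on log2(scaled FPKM + 0.1) over 10578 features, with Benjamini-Hochberg adjustment. A gene was called where the adjusted p was below 0.05 and the log2 fold change was above 1 or below -1. Fold changes of low genes are understated on the scale used. The number of reads behind a value was not analysed here, so no counting error is given. The gene prmt3 (POX_b03080) was at 24.9 to 33.4 FPKM in Δku70 and was listed at 0, 0.04 and 0 in the libraries taken as Δprmt3. The labels name the deleted gene of those libraries POX03070, and the gene that carries this number in the files, POX_b03070, was at 159 to 174 FPKM there and at 609 to 838 in Δku70, a log2 fold change of -1.91 (adjusted p = 1.2e-05 from limma). The gene taken as cxrA (POX_a00763) was at 90.7 to 121 FPKM in Δku70 and was listed at 0 in all 3 ΔcxrA libraries.

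In Δku70, flbD and brlA were both high and abaA was much lower, in Δprmt3 all 3 genes fell, and in ΔcxrA flbD and brlA fell further while abaA did not. The losses were uneven. In Δprmt3 the log2 fold change was -4.86 for brlA, -1.38 for abaA and -1.26 for flbD. In ΔcxrA it was -6.37 for brlA, -4.30 for flbD and 0.39 for abaA, which was not called. Since RNA came from whole mycelium, fewer cells that use a gene and less RNA per cell cannot be told apart.

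**Figure D1:**
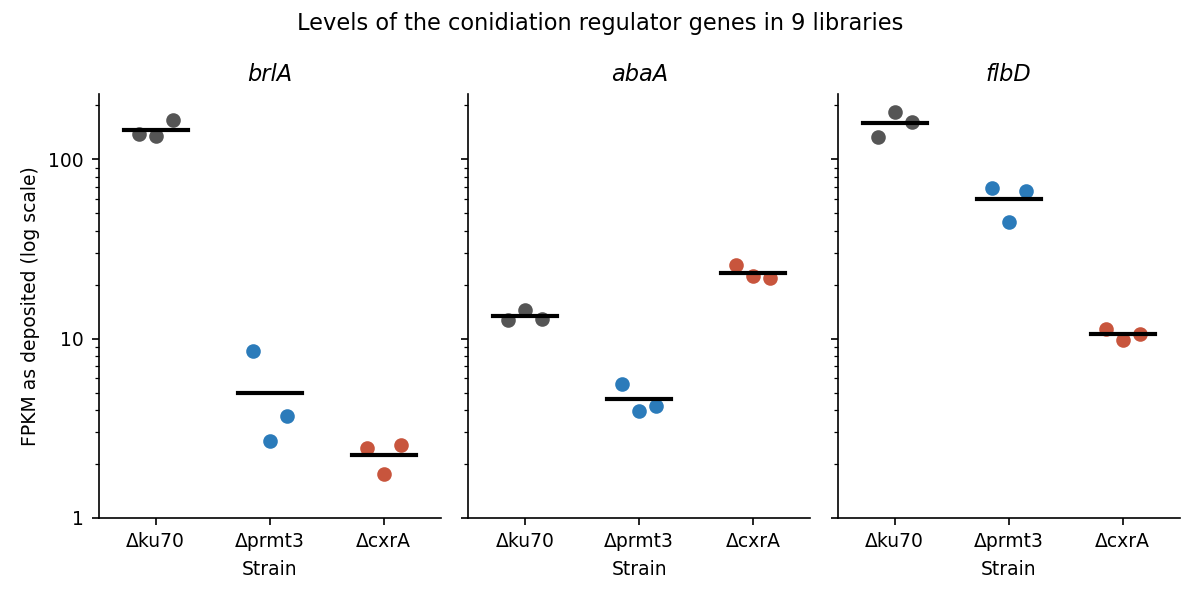
FPKM as deposited of brlA, abaA and flbD (vertical axis, log scale) in the 9 libraries, by strain. Points are libraries, in the order of their replicate numbers, and lines are strain means. The ΔcxrA points are the lowest for brlA and flbD and the highest for abaA, and the first Δprmt3 library lies above the other 2 for brlA.

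The upstream gene flbD was at 133, 185 and 161 FPKM in Δku70 replicates 1 to 3, at 68.8, 44.7 and 66.6 in Δprmt3 and at 11.3, 9.79 and 10.6 in ΔcxrA. The 3 strains did not overlap, with Δku70 highest and ΔcxrA lowest. On scaled FPKM the means were 170.0 ± 31.6, 71.3 ± 15.8 and 8.44 ± 0.43 (SD, n = 3 each). Among the 9822 genes with an identifier, flbD thus went from the 87.2 to 91.4 percentile of FPKM in Δku70 libraries to the 69.1 to 78.1 percentile in Δprmt3 and the 25.9 to 27.2 percentile in ΔcxrA. The level of flbD in Δprmt3 was 2.40-fold lower than in Δku70, a log2 fold change of -1.26 (95% confidence interval -1.69 to -0.84, adjusted p = 0.00147 from limma). In ΔcxrA it was 19.7-fold lower than in Δku70, at -4.30 (-4.73 to -3.88, adjusted p = 4.49e-07 from limma). Of the 9363 tested genes with an identifier, 769 had a lower log2 fold change than flbD in Δprmt3 and 172 in ΔcxrA.

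The central activator gene brlA was at 138, 135 and 166 FPKM in Δku70 replicates 1 to 3, at 8.57, 2.69 and 3.70 in Δprmt3 and at 2.44, 1.76 and 2.55 in ΔcxrA. Every mutant library was far below every Δku70 library. The mutants did not overlap either, but replicate 2 of Δprmt3 and replicate 3 of ΔcxrA were close to each other. On scaled FPKM the means were 155 ± 14.9, 5.88 ± 3.57 and 1.79 ± 0.32 (SD, n = 3 each). The standard deviation of brlA over the Δprmt3 libraries was 63.0% of the mean FPKM, against 11.8% in Δku70 and 19.0% in ΔcxrA, since replicate 1 of Δprmt3 was above the other 2. The percentile of brlA among genes with an identifier was 87.6 to 89.3 in Δku70 libraries, 20.5 to 29.3 in Δprmt3 and 12.4 to 14.8 in ΔcxrA. In Δprmt3 brlA was 29.0-fold lower than in Δku70, a log2 fold change of -4.86 (-5.68 to -4.04, adjusted p = 2.93e-05 from limma). In ΔcxrA it was 82.6-fold lower, at -6.37 (-7.19 to -5.54, adjusted p = 1.93e-06 from limma). Only 79 of the 9363 tested genes with an identifier had a lower log2 fold change than brlA in Δprmt3, and 65 in ΔcxrA.

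The gene abaA, which in A. nidulans acts after brlA, was at 12.6, 14.5 and 12.8 FPKM in Δku70 replicates 1 to 3, at 5.57, 3.93 and 4.22 in Δprmt3 and at 25.7, 22.2 and 21.7 in ΔcxrA. The order of the strains therefore differed from that of flbD and brlA, with ΔcxrA highest and no overlap between strains on FPKM. On scaled FPKM the means were 14.2 ± 1.52, 5.42 ± 0.93 and 18.5 ± 1.44 (SD, n = 3 each). In Δprmt3 abaA was 2.60-fold lower than in Δku70, a log2 fold change of -1.38 (-1.72 to -1.03, adjusted p = 0.000276 from limma), and 691 genes with an identifier were lower still. In ΔcxrA the log2 fold change was 0.39 (0.04 to 0.73, adjusted p = 0.0524 from limma), short of both thresholds. That interval holds values up to a 0.73 rise and none that is a fall. On FPKM without further scaling the value was 0.80 with an adjusted p of 0.00196, and under quantile normalization 0.52 with 0.0118, so the size of the abaA difference in ΔcxrA depends on the scaling and was below 1 under every alternative tried, from 0.33 to 0.80.

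**Figure D2:**
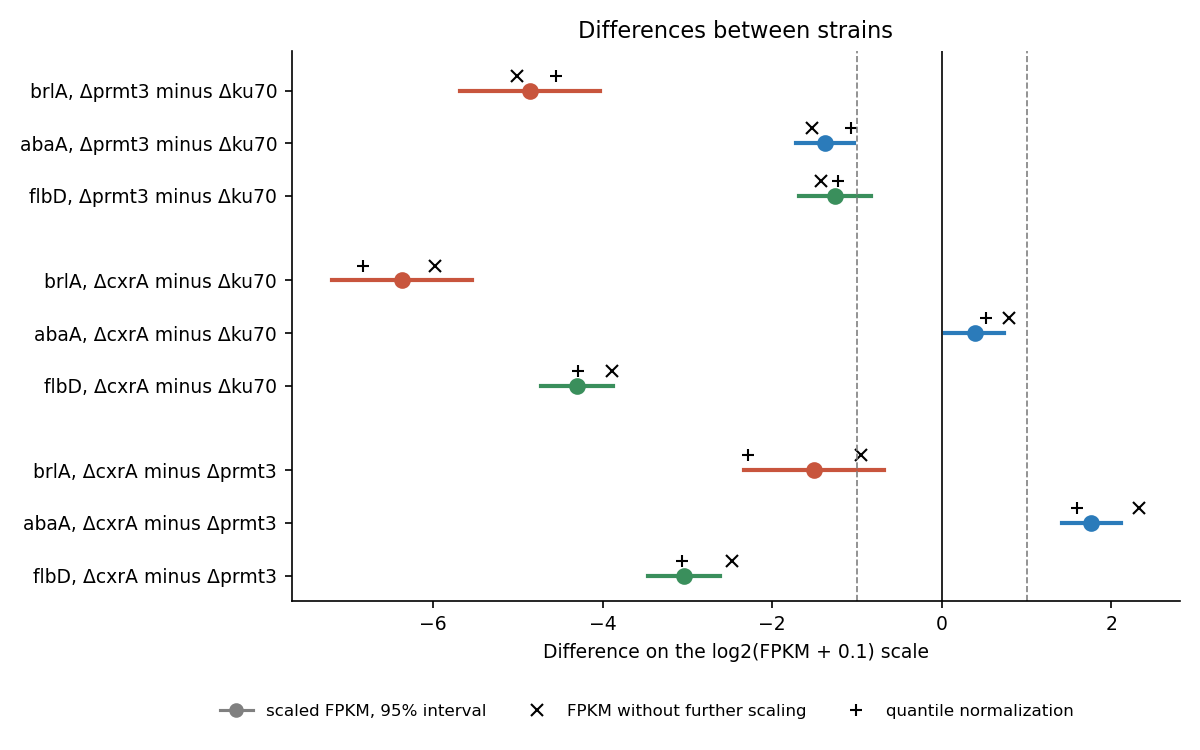
Differences between strains for each gene on the log2(FPKM + 0.1) scale (horizontal axis). Circles and lines are the limma value on scaled FPKM and its 95% confidence interval, and crosses and plus signs are the value without further scaling and under quantile normalization. Dashed lines mark -1 and 1. The abaA value in ΔcxrA minus Δku70 is 0.39 and stays between 0 and 1 under both other scalings.

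The calls can be set beside how often any feature was called. In Δprmt3 all 3 genes were called lower, where 7.51% of the 10578 features tested were called lower and 3.59% higher. These genes were named by the study from these same libraries in that comparison, so the Δprmt3 calls are not independent evidence of their direction. In ΔcxrA, brlA and flbD were called lower, where 13.2% of features were called lower and 16.4% higher, or 8.67% and 26.0% without further scaling. Of the 9363 tested genes with an identifier, 439 (4.69%) were called lower in both mutants, as brlA and flbD were. Both comparisons use the same 3 Δku70 libraries.

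**Figure D3:**
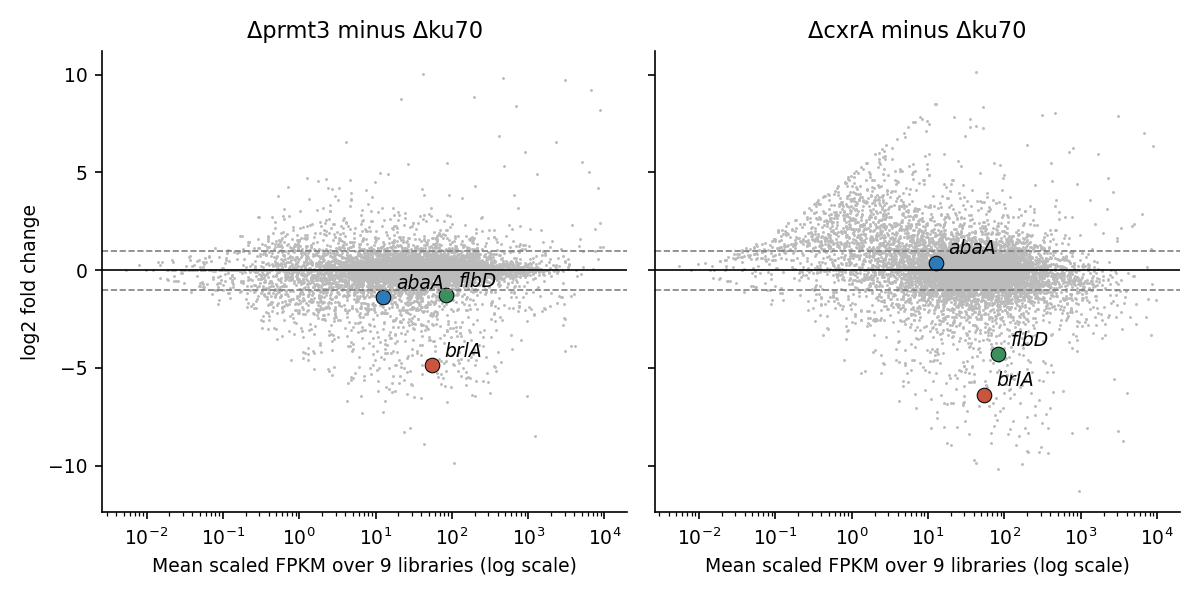
Log2 fold change against Δku70 (vertical axis) by mean scaled FPKM over the 9 libraries (horizontal axis, log scale), for Δprmt3 and ΔcxrA. Grey points are the 9363 tested genes with an identifier, and coloured points are brlA, abaA and flbD. The brlA point lies near the lower edge in both panels, at -4.86 and -6.37, and abaA lies at 0.39 in ΔcxrA.

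The mutants were also compared with each other, which uses no Δku70 library for the difference itself. In ΔcxrA, flbD was 8.22-fold lower than in Δprmt3, a log2 difference of -3.04 (-3.46 to -2.61, adjusted p = 3.76e-06 from limma). The brlA difference was -1.51 (-2.33 to -0.69, adjusted p = 0.00629 from limma), and abaA was 3.40-fold higher in ΔcxrA, at 1.77 (1.42 to 2.11, adjusted p = 2.22e-05 from limma). The 3 genes were thus called in this comparison, 2 lower and 1 higher, where 12.2% of features were called lower and 17.6% higher. Without further scaling these shares were 6.11% and 31.4%. The brlA difference rested on lower levels in ΔcxrA and depended on more choices than the others. It was -0.96 without further scaling, short of the fold threshold, -2.28 under quantile normalization and -1.05 without replicate 1 of Δprmt3. Only 142 genes with an identifier had a lower value than flbD in this comparison, against 731 for brlA, and 920 had a higher value than abaA. The pattern of brlA and flbD, lower in both mutants and lower in ΔcxrA than in Δprmt3, was called for 160 of the 9363 genes (1.71%). The pattern of abaA, lower in Δprmt3, not called in ΔcxrA and higher in ΔcxrA than in Δprmt3, was called for 149 (1.59%).

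Within a library the ratio of the deposited FPKM of a pair of these genes is the same with or without 1 scaling factor per library, though not under quantile normalization, and the order of their levels per length changed with the strain. In Δku70, brlA and flbD were at like levels, with brlA at 0.730 to 1.04 times the FPKM of flbD, and neither was higher in all 3 libraries. In Δprmt3 brlA was at 0.0556 to 0.125 times the FPKM of flbD and in ΔcxrA at 0.180 to 0.240 times. So flbD was above brlA in every mutant library, and the gap was wider in Δprmt3, with no overlap between the mutants. The mean log2 ratio of brlA to flbD was -3.74 in Δprmt3 and -2.25 in ΔcxrA, a difference of 1.495. Under quantile normalization the difference between the mutants was smaller, at 0.78. Ratio differences under that normalization were taken from log2(value + 0.1), unlike the ratios of FPKM, and overlap was not checked there. The FPKM of brlA was 9.31 to 12.9 times that of abaA in Δku70, 0.685 to 1.54 times in Δprmt3 and 0.0791 to 0.118 times in ΔcxrA. In Δprmt3 brlA and abaA thus did not differ beyond their spread, with brlA higher in replicate 1 and lower in the other 2, while in ΔcxrA abaA was above brlA in all 3 libraries. The FPKM of abaA was 0.0784 to 0.0946 times that of flbD in Δku70 and 0.0633 to 0.0880 times in Δprmt3, ranges that overlap, and 2.04 to 2.28 times in ΔcxrA. From highest to lowest, the order was flbD and brlA together and then abaA in Δku70, flbD and then brlA and abaA together in Δprmt3, and abaA, flbD and brlA, each apart from the next, in ΔcxrA.

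**Figure D4:**
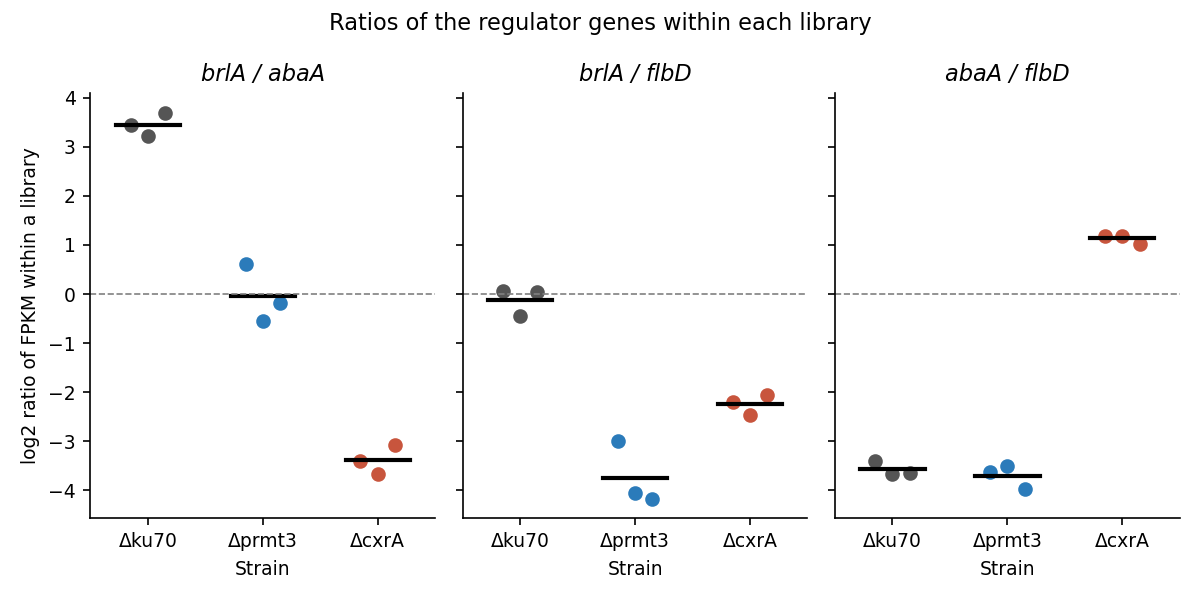
Log2 ratio of the FPKM of each pair of genes within a library (vertical axis), by strain. Points are libraries, in the order of their replicate numbers, lines are strain means and the dashed line marks equal FPKM. The abaA to flbD ratio overlaps between Δku70 and Δprmt3 and is above 0 only in ΔcxrA.

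Differences in these log2 ratios between strains were compared with an exact two-sided permutation test, which with 3 libraries against 3 cannot give a p below 0.1. In 8 of the 9 comparisons the libraries did not overlap and p was 0.1. The 9 comparisons are not independent, since they reuse the same genes and libraries and each ratio follows from the others. How often other gene pairs do not overlap was not tested, so nothing is read from this count. The brlA to abaA ratio differed from that of Δku70 by -3.49 in Δprmt3 and by -6.84 in ΔcxrA on the log2 scale. The abaA to flbD ratio was higher by 4.71 in ΔcxrA than in Δku70, and by 4.84 than in Δprmt3. In the remaining comparison, abaA to flbD in Δprmt3 against Δku70, the difference was -0.13 with an exact p of 0.6, and 0.14 under quantile normalization. The falls of abaA and flbD in Δprmt3 were thus not told apart, while for the brlA to flbD ratio the difference was -3.62.

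Actin (POX_d06005), the reference gene of the study for quantitative PCR, showed how a housekeeping gene behaved in the same libraries. It was at 31.3 to 35.7 FPKM in Δku70, 26.8 to 31.7 in Δprmt3 and 113 to 129 in ΔcxrA. Its log2 fold change was -0.04 in Δprmt3 (adjusted p = 0.739 from limma) and 1.41 in ΔcxrA (adjusted p = 1.95e-06 from limma), 1.82 without further scaling and 1.55 under quantile normalization. The actin value in ΔcxrA was thus above that of abaA under each scaling, a difference that was not itself tested, and its part in the values of the 3 genes was not tested.

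The genes whose profile over the 9 libraries was most like that of each regulator were ranked by Pearson's r on log2(scaled FPKM + 0.1), among 8744 genes with an identifier and a mean scaled FPKM of at least 1. The 9 points fall into 3 strains, so r mostly describes the strain means and is given with no p. Genes were picked for likeness in these same libraries, so their calls follow from that choice and nothing is read from the counts. Over all features tested, 7.51% were called lower in Δprmt3, and 13.2% lower and 16.4% higher in ΔcxrA. With brlA, 197 genes had r of at least 0.95, of which 162 were called lower in Δprmt3 and 176 in ΔcxrA, and with Spearman's rho in place of r the number was 106. The 5 most alike were POX_d04828, POX_c04213, POX_f08211, POX_g09223 and POX_d05366, with r between 0.995 and 0.998. Among them POX_c04213 was close to brlA in size too, at 208 scaled FPKM in Δku70, 5.60 in Δprmt3 and 1.74 in ΔcxrA. POX_g09223 went from 536 to 32.0 and 10.9, whereas POX_d04828, with the highest r, only went from 74.5 to 33.7 and 26.6. The annotation used here covers genes that the study called in a mutant, and it gives a family other than hypothetical protein to 6 of the 197. They include another C2H2 zinc finger gene, POX_c04377, with r of 0.97 and 445, 58.7 and 7.41 scaled FPKM in Δku70, Δprmt3 and ΔcxrA. A gene with a winged helix domain, POX_c04517, had r of 0.96 and went from 411 to 12.8 and 0.863.

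With flbD, 343 genes had r of at least 0.95, of which 64 were called lower in Δprmt3 and 259 in ΔcxrA. This number depended on the measure, and was 142 without further scaling and 35 with Spearman's rho in place of r. The 5 most alike were POX_d05183, POX_g08879, POX_e06573, POX_b03307 and POX_c04196, with r between 0.993 and 0.997. POX_d05183 was at 195 scaled FPKM in Δku70, 111 in Δprmt3 and 24.1 in ΔcxrA, and POX_b03307 at 55.8, 30.3 and 4.58, both smaller steps than those of flbD. Of the 343 genes, 29 had a family other than hypothetical protein. Among these was the only APSES-type gene of the list, POX_f08200, with r of 0.98 and 156, 135 and 65.9 scaled FPKM. It was called lower in ΔcxrA and not called in Δprmt3. The study's annotation names 2 APSES-type genes, and the other 1 went the opposite way, called higher in both mutants. The APSES family of transcription factors includes StuA, another developmental regulator of A. nidulans, but which APSES gene POX_f08200 corresponds to is not annotated here. The β-glucosidase gene bgl1 (POX_e06772), which encodes an enzyme that splits cellobiose, and cel61A (POX_b02315), which encodes a lytic polysaccharide monooxygenase, were also in this list, with r of 0.99 and 0.98. Both were called lower in Δprmt3, at -1.24 and -1.36. Another β-glucosidase gene, POX_g09069, and a xyloglucan endoglucanase gene, POX_a00965, had r of 0.96 each. They were not called in Δprmt3, at -0.46 and -0.13.

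With abaA, 44 genes had r of at least 0.95, of which 31 were called lower in Δprmt3, 8 higher in ΔcxrA and 0 lower in ΔcxrA. Without further scaling the number was 171, against 142 for flbD and 180 for brlA, so the order of the 3 list sizes depends on the scaling. The 5 most alike were POX_f07519, POX_h09669, POX_c04005, POX_d06049 and POX_a01043, with r between 0.980 and 0.987. POX_d06049 had larger differences than abaA, at 369 scaled FPKM in Δku70, 11.5 in Δprmt3 and 710 in ΔcxrA. POX_f07519 was at 5.59, 0.259 and 9.45. All 15 genes most alike to one of the regulators have no family annotation here. The lists of brlA and flbD shared 16 genes, 8.12% of the first and 4.66% of the second. The list of abaA shared 0 with either, which was fixed in advance by the low r of abaA with both. Between the regulators themselves r was 0.86 for brlA and flbD, 0.10 for brlA and abaA and -0.40 for abaA and flbD, and flbD ranked 599 among the genes most like brlA.

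The 3 regulators were set beside the genes next to them in the order of the RefSeq annotation of assembly ASM172317v3, in which 9718 of the 9822 identifiers were found. Only these matched genes were counted, so any gene without a match was passed over. The genes abaA and flbD lie on the same chromosome with 71 matched genes between them, and brlA lies on another. Of the 18 nearest matched genes, 3 on each side of each regulator, 16 were tested. POX_c03557 and POX_c03560 beside brlA were listed at 0 in all 9 libraries. In Δprmt3, where all 3 regulators were called lower, 1 of the 16 was called, POX_c03562, with a log2 fold change of -1.03. In ΔcxrA 3 were called, POX_c03561 at 1.17, POX_e06959 at 1.73 and POX_e06956 at -1.47. Of all features, 7.51% were called lower and 3.59% higher in Δprmt3, and 13.2% and 16.4% in ΔcxrA. Nothing is read from the counts of neighbours called. The 6 genes around flbD were called in no comparison, though the 3 after it were listed at 0 in many libraries. Around abaA, 3 of the 6 were called higher in ΔcxrA than in Δprmt3. Of all features, 17.6% were, or 31.4% without further scaling. POX_e06956 was called lower there, at -1.89. The gene before abaA, POX_e06957, was at 13.3 to 18.5 FPKM in Δku70, 0 to 4.43 in Δprmt3 and 36.2 to 53.2 in ΔcxrA, the same order of strains as abaA with a value at 0 in 1 library. On the log2 scale it differed between the mutants by 4.71 with a standard error of 1.32 (adjusted p = 0.0136 from limma), and against Δku70 it was called in neither mutant, at -3.62 and 1.09.

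**Figure D5:**
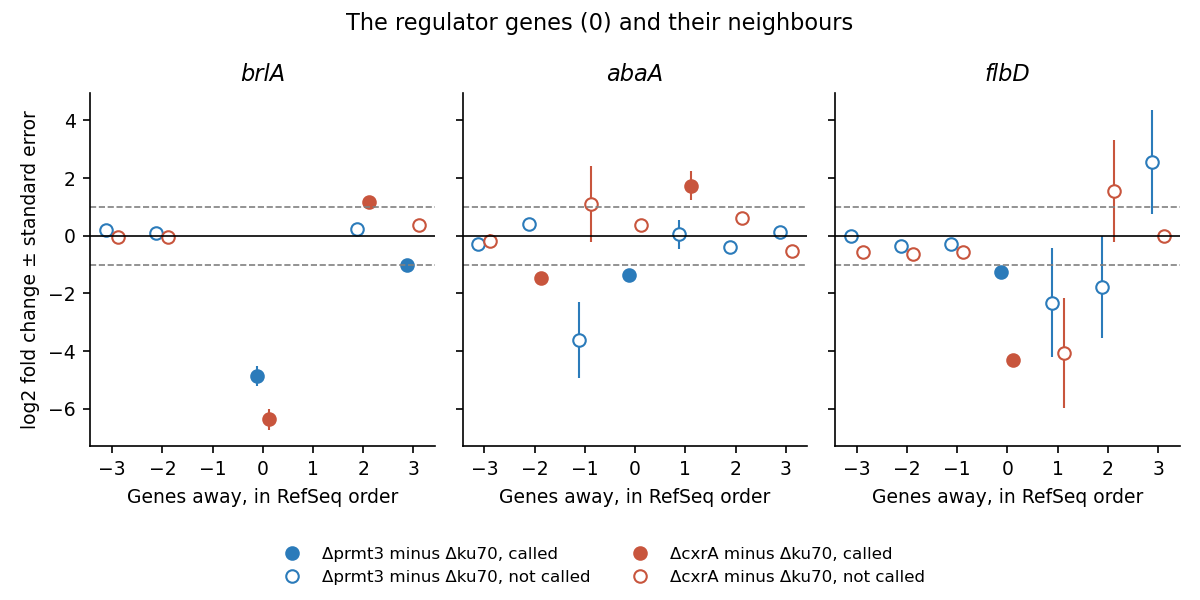
Log2 fold change against Δku70 with its standard error (vertical axis) for each regulator, at 0 on the horizontal axis, and its tested neighbours. These lie up to 3 places away among the matched genes in RefSeq order. Filled circles were called and open circles were not. The brlA values of -4.86 and -6.37 stand below those of all its tested neighbours, of which 1 was called in each mutant.

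Other genes of the same families in the study's annotation, which covers only genes the study called, gave a further comparison. The annotation names 4 Myb-type genes, and flbD was the only one of them called in Δprmt3. The other 3 had log2 fold changes between 0.14 and 0.43 there. In ΔcxrA, POX_a00252 and POX_a00736 were called lower, at -1.45 and -1.24, both smaller falls than that of flbD, and POX_d05853 was called higher at 1.05. In Δku70 flbD was also the highest of the 4 per length, at 170.0 scaled FPKM against 24.9, 18.4 and 30.7. Of 25 C2H2 zinc finger genes, brlA included, 5 were called lower and 2 higher in Δprmt3, and 15 lower and 9 higher in ΔcxrA. The shares of all features were 7.51% and 3.59% in Δprmt3 and 13.2% and 16.4% in ΔcxrA. The Myb and C2H2 lists hold only genes the study called in these libraries, so nothing is read from how many of them were called. The gene abaA is the only one annotated as TEA/ATTS.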

How the data were processed

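The authors used SOAPnuke for read cleaning, HISAT2 for mapping and RSEM with Bowtie2 for quantification, and the deposited values are FPKM, in 1 table per library. The genome build is not given in the sources used here. Read counts were not analysed here, so depth is unknown and the count test of the study, DESeq2, was not repeated.

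Scaling factors were medians of ratios over the 9335 features above 0 in all libraries. The 504 features at 0 everywhere were left out. Values of log2(scaled FPKM + 0.1) of all 9 libraries entered 1 limma model (version 3.58.1, R 4.3.3, eBayes with trend) of strain means. Python 3.11.15 was used for the rest, with SciPy 1.17.1 for permutation tests, matplotlib 3.10.9 for figures, pandas 2.3.3 and numpy 2.4.6. The fit was tested on simulated data.

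The members and lists were chosen with earlier results of these data known. The genes named are the 3 regulators, the 5 genes most like each by Pearson's r, the 3 genes on each side, the deleted genes and actin. POX_b03070, the Myb-type genes and the annotated genes of the likeness lists were named after their values were seen. A wider list of conidiation genes, to be found by product name, was not used here, because the reference table holds no product names. Alternatives tried were unscaled FPKM, quantile normalization, a pseudocount of 1 or 0.01, leaving out features with a mean FPKM below 1, a fit of the 6 libraries compared, a robust eBayes, a replicate block, Spearman's rho for likeness, and leaving out each replicate. Fitting only features with an identifier and, for the ratios, leaving out replicates and quantile normalization were added after seeing the data.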

Additional observations from a re-analysis of the deposited data

Results flagged for a closer look

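For each regulator the change in ΔcxrA differed from the change in Δprmt3 when the mutants were compared directly with limma. The difference was -1.51 for brlA, 1.77 for abaA and -3.04 for flbD on the log2 scale, with flbD and brlA lower and abaA higher in all 3 ΔcxrA libraries than in all 3 Δprmt3 libraries. The actin gene differed between the mutants by 1.45 in the same fit (adjusted p = 2.32e-06 from limma), and its part in these differences was not tested.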

How the results depend on the processing

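Over 18 alternatives each, the 3 calls in Δprmt3, those of brlA and flbD in ΔcxrA, and those of abaA and flbD between the mutants held. The exception among called values was brlA between the mutants, at -0.96 (adjusted p = 0.0468 from limma) without further scaling, and -1.86 to -1.05 when 1 replicate was left out. The abaA value in ΔcxrA was never called, with an adjusted p between 0.00196 and 0.157 from limma and under 0.05 in 10 of 18 alternatives. Without further scaling, which shifts the median gene by 0.40 in ΔcxrA and 0.56 between the mutants, the features called went from 1737 higher and 1400 lower to 2745 and 917 in ΔcxrA, and from 1866 and 1291 to 3322 and 646 between the mutants. Quantile normalization gave 1427 higher and 1492 lower between the mutants. The numbers of genes with r of at least 0.95 moved most. With Spearman's rho they were 106 for brlA and 35 for flbD, and without further scaling 142 for flbD and 171 for abaA. The small abaA to flbD difference in Δprmt3 was between -0.23 and 0.007 when 1 replicate was left out, and 0.14 under quantile normalization. The cause of these moves was not tested.

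Same-numbered replicates did not deviate together over the features tested, with correlations between -0.04 and 0.05 over the 3 pairs of strains. Whether they were grown or handled together is not given in the labels, and these correlations cannot tell. With the replicate block the features called were 358 higher and 756 lower in Δprmt3 and 1715 and 1402 in ΔcxrA, and no call of the 3 genes changed. The list of conidiation genes, planned with its alternatives, was not run. Depth is unknown, which limits brlA in both mutants and abaA in Δprmt3 most, where all values are below 9 FPKM.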
